A study of Mus musculus with 502 samples.

Results

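The silencers described here are those of the long arm of human chromosome 22 in 3 cell lines. They were selected by position among the silencers the authors had called from the reporter readout, as the lines of the 3 deposited lists on chromosome 22 whose midpoint lies between 17.4 and 49.8 Mb on hg38, a stretch of 32.4 Mb. That rule found 4785 silencers of 397136 in all (1.20%): 1137 of 125249 in 293T, 1720 of 134159 in K562 and 1928 of 137728 in LNCap. The chromosome itself had been picked from earlier results because the 293T list placed a small share of its silencers there, so the difference in number between the lists is given below as a description and not as a finding. A further 119 silencers of 293T, 148 of K562 and 88 of LNCap on chromosome 22 lay below the lower bound, and 40, 61 and 68 lay above the upper bound.

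Silencers are stretches of DNA that lower transcription from a promoter, as enhancers raise it, usually by binding repressor proteins that recruit histone-modifying complexes. The long arm of chromosome 22 is short and rich in genes. Its part nearest the centromere carries blocks of duplicated sequence that mediate the deletion behind DiGeorge syndrome. Further out follow the immunoglobulin lambda light chain locus, the breakpoint gene BCR of chronic myeloid leukaemia, and the tumour suppressors SMARCB1 and NF2. The distal part holds the APOBEC3 cytidine deaminases, the growth factor gene PDGFB and the histone acetyltransferase gene EP300. Genes are named here and below only as landmarks from their textbook map positions; no human annotation was used and no silencer was assigned to a gene.

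The assay, Ss-STARR-seq, clones short sheared genomic fragments into a plasmid reporter, which is transfected into cells and read as plasmid DNA (input) and as RNA (output). It therefore measures a fragment on a plasmid and not at its own place in the chromosome. The 3 lines had no further genotype or treatment in the labels. K562 is a chronic myeloid leukaemia line with erythroid features that carries the BCR-ABL1 fusion, LNCap comes from a prostate cancer and responds to androgen, and 293T descends from embryonic kidney cells and expresses the SV40 large T antigen. The labels give 502 libraries: 102 output and 1 input for 293T, 180 output for K562, and 179 output and 40 input for LNCap. No input library of K562 is among them. The number of libraries thus differs with the line, and its part in differences between the lists cannot be told apart from that of the line. The organism is given as mouse for all of them, but the lists name 22 autosomes, the build named is human, and they are treated as human here. There is 1 list per line, so no value has a replicate error, and intervals cover counting error only.

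The arm held fewer 293T silencers than silencers of either other line. The 293T list had 35.1 silencers per Mb (exact 95% Poisson interval 33.1 to 37.2). K562 had 53.1 (50.6 to 55.7), and LNCap 59.5 (56.9 to 62.2). As a share of its own list, the arm took 0.908%, 1.28% and 1.40% in 293T, K562 and LNCap. The 293T share was 0.677 times the mean of the other shares, the K562 share 1.11 times and the LNCap share 1.28 times. LNCap also exceeded K562, by 1.09 times in share of list (approximate interval 1.02 to 1.17). Among 21 other autosomes taken whole, the 293T ratio ranged from 0.696 on chromosome 19 to 1.14 on chromosome 4, and the LNCap ratio from 0.908 on chromosome 4 to 1.22 on chromosome 19. The arm thus lay below all of them for 293T and above all of them for LNCap, while for K562 2 of the 21 had a higher ratio. Because the chromosome was chosen for the 293T ratio, its place in that order was fixed beforehand. The K562 and LNCap ratios have the 293T share in their denominator, so their places follow in part from the same choice and are descriptions too.

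Density varied along the arm in all 3 lists. The arm was divided into 4 stretches of 8.1 Mb from the centromeric to the telomeric side. K562 had 45.9 silencers per Mb in the stretch nearest the centromere (interval 41.4 to 50.8), 59.4 (54.2 to 64.9) and 61.6 (56.3 to 67.3) in the middle stretches, and 45.4 (40.9 to 50.3) in the most distal. LNCap followed the same course, with 56.4, 62.2, 67.4 and 52.0 per Mb. The 293T list was densest in the stretch from 25.5 to 33.6 Mb, with 41.2 per Mb (36.9 to 45.9), against 32.0, 33.8 and 33.3 in the others. Between 33.6 and 41.7 Mb, where K562 and LNCap were densest, the 293T share ratio was the lowest of the 4 stretches at 0.569 (approximate interval 0.498 to 0.650). The ratio was 0.679 nearest the centromere, 0.736 in the next stretch and 0.743 in the most distal.

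**Figure D1:**
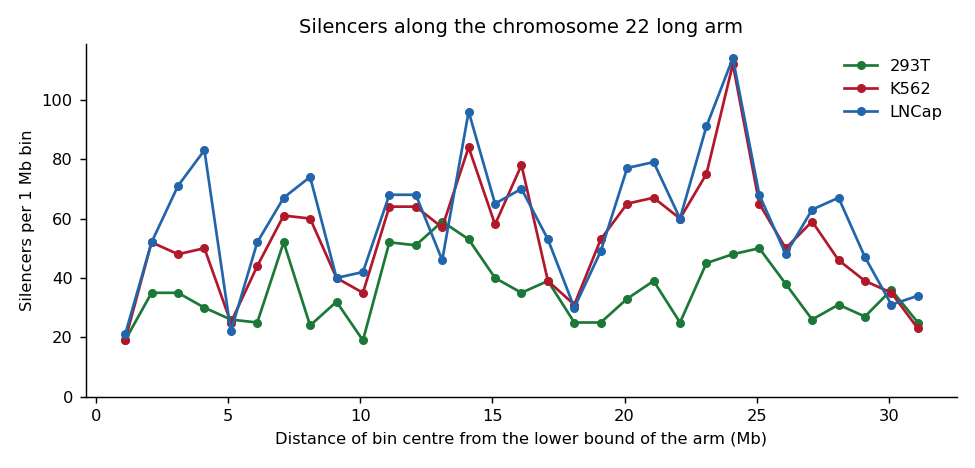
Silencers per 1 Mb bin (y axis, count) in the 31 full bins of the arm, against the distance of the bin centre from the lower bound of the arm (x axis, Mb), 1 line per list. K562 (red) and LNCap (blue) rise and fall together and reach 112 and 114 in the same bin, whereas 293T (green) stays between 19 and 59.

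The K562 and LNCap counts of 1 Mb bins ran closely together. Over the 31 full bins, counts ranged from 19 to 59 in 293T (median 35), from 19 to 112 in K562 (median 53) and from 21 to 114 in LNCap (median 63). The Spearman correlation between bins was 0.85 between K562 and LNCap. With 293T it was 0.61 for K562 and 0.47 for LNCap. These are descriptions over neighbouring bins of 1 chromosome, which share gene density, base composition and mappability and are not independent.

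At the centromeric end, counts changed sharply from bin to bin. Between 17.4 and 18 Mb the lists held 22, 43 and 50 silencers in 293T, K562 and LNCap. The bin from 18 to 19 Mb, where the first of the duplicated blocks lies, was the poorest of the full bins in K562, with 19, and in LNCap, with 21; 293T had 19. The next bin holds TBX1, the transcription factor gene most closely tied to the heart defects of DiGeorge syndrome. It had 35, 52 and 52 silencers in 293T, K562 and LNCap. From 20 to 21 Mb the counts were 35, 48 and 71, in a bin that covers DGCR8, a subunit of the microRNA Microprocessor. LNCap stood above K562 in that bin and again in the next.

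The bin from 21 to 22 Mb, which holds another duplicated block, set LNCap apart most clearly. It contained 30, 50 and 83 silencers in 293T, K562 and LNCap, so that the size-scaled LNCap count was 1.62 times that of K562, the highest such ratio of the 33 bins. The 100 kb window from 21.8 to 21.9 Mb alone had 23 in LNCap, the most in any window of the arm for that list, against 11 in K562 and 7 in 293T. The adjoining bin from 22 to 23 Mb, which is largely the immunoglobulin lambda locus, was poor in all lists, with 26, 25 and 22. There the 293T list was not below the others: its size-scaled count was 1.20 times their mean.

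Beyond the lambda locus K562 and LNCap were higher again. The bin with BCR and the chromatin remodelling gene SMARCB1, from 23 to 24 Mb, held 25, 44 and 52 silencers in 293T, K562 and LNCap. From 24 to 25 Mb, with GGT1, which encodes an enzyme of glutathione metabolism, the counts were 52, 61 and 67. The bin from 25 to 26 Mb, with beta crystallin genes of the lens and the start of the long gene MYO18B, had the lowest 293T ratio of the arm, 0.389. It held 24 silencers in 293T against 60 in K562 and 74 in LNCap.

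In the stretch from 26 to 31 Mb the lists were close in most bins, but not from 27 to 28 Mb, where the 293T ratio was 0.536. Counts in 293T, K562 and LNCap were 32, 40 and 40 from 26 to 27 Mb and 19, 35 and 42 in the gene-poor bin after it. They were 52, 64 and 68 from 28 to 29 Mb, which holds the checkpoint kinase gene CHEK2 and the unfolded-protein-response factor gene XBP1. They were 51, 64 and 68 from 29 to 30 Mb, with EWSR1, rearranged in Ewing sarcoma, and NF2, mutated in neurofibromatosis type 2. The bin from 30 to 31 Mb, which holds the cytokine genes LIF and OSM, was the fullest of all for 293T, with 59, and the order of the lists was turned there, with 57 in K562 and 46 in LNCap. Its 293T ratio of 1.24 was the highest on the arm, and its LNCap to K562 ratio of 0.786 the lowest.

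Beyond 31 Mb a full bin was followed by poorer ones. From 31 to 32 Mb, a gene-dense bin that includes the zinc finger gene PATZ1, the lists held 53, 84 and 96. From 32 to 33 Mb, which holds most of the synapsin gene SYN3, they held 40, 58 and 65. The bin from 33 to 34 Mb had 35, 78 and 70. The gene desert from 34 to 35 Mb had 39, 39 and 53, and the bin from 35 to 36 Mb, with the haem oxygenase gene HMOX1, had 25, 31 and 30. The desert thus held more silencers in each list than the bin distal to it.

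From 36 to 42 Mb the K562 and LNCap counts stood well above those of 293T in every bin. The bin from 36 to 37 Mb, with the APOL genes and the non-muscle myosin gene MYH9, held 25, 53 and 49 in 293T, K562 and LNCap. The counts were 33, 65 and 77 in the next bin, which holds the cytokine receptor gene IL2RB and SOX10, a neural crest transcription factor gene, and 39, 67 and 79 from 38 to 39 Mb, which reaches into the APOBEC3 cluster. From 39 to 40 Mb, with PDGFB and the Polycomb subunit gene CBX7, 293T had 25 and both other lists 60. The bin from 40 to 41 Mb, with 45, 75 and 91, holds TNRC6B, a partner of Argonaute in microRNA silencing, and MRTFA, a coactivator of serum response factor.

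The bin from 41 to 42 Mb was the fullest of the arm. It held 48, 112 and 114 silencers in 293T, K562 and LNCap. It covers EP300, the Polycomb-associated repressor gene L3MBTL2 and SREBF2, the main transcription factor of cholesterol synthesis. Although 293T was well filled there by its own standard, its ratio was 0.461, among the 4 lowest of the arm together with 0.389 from 25 to 26 Mb, 0.452 from 39 to 40 Mb and 0.463 from 44 to 45 Mb.

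Towards the telomere the counts were lower. From 42 to 43 Mb they were 50, 65 and 68, and from 43 to 44 Mb 38, 50 and 48. From 44 to 45 Mb 293T had 26 against 59 in K562 and 63 in LNCap, and from 45 to 46 Mb 31 against 46 and 67. The bin from 46 to 47 Mb, with the fatty acid sensor gene PPARA and the planar polarity cadherin gene CELSR1, had 27, 39 and 47. From 47 to 48 Mb the lists were nearly equal, with 36, 35 and 31, and 293T was at 1.18 times the mean of the others. The bin from 48 to 49 Mb had 25, 23 and 34, and the part from 49 to 49.8 Mb had 16, 19 and 30.

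The 293T counts were also set against the other lists bin by bin. The size-scaled 293T count was below the mean of the other lists in 29 of 33 bins, and over the whole genome this held for 46.4% of the 2856 bins with at least 20 silencers. It was under 0.5 times that mean in 5 bins, against 1.75% of bins over the genome. These counts restate the value by which the chromosome was picked, and nothing is read from them. The median ratio over the bins of the arm was 0.682, and the exceptions were the 4 bins starting at 18, 22, 30 and 47 Mb. Of all silencers on the arm 23.8% were from 293T, against 31.5% over the 3 lists as a whole. The exact interval of the 293T share lay wholly below 31.5% in 16 bins and wholly above it in 0 bins. These 2 counts also follow from how the chromosome was picked, and no genome-wide count stands beside them. In none of the 4 exceptions did the 293T share exceed 31.5% by more than its counting error.

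**Figure D2:**
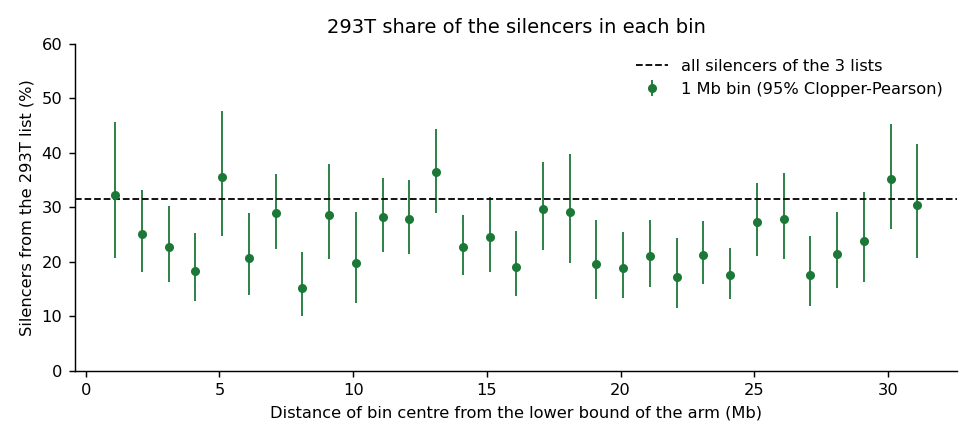
Share of the silencers of each full 1 Mb bin that came from the 293T list (y axis, %), with 95% Clopper-Pearson intervals, against the distance of the bin centre from the lower bound of the arm (x axis, Mb). The dashed line is the share over all silencers of the series, 31.5%; most bins lie under it, and the lowest point is the bin from 25 to 26 Mb.

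At a finer scale the arm had crowded and empty places, only some of which the lists had in common. Of 324 windows of 100 kb, the 293T list left 37 empty, K562 24 and LNCap 18, and 12 held no silencer of any list. The fullest window, from 41.7 to 41.8 Mb, held 13, 13 and 17 silencers in 293T, K562 and LNCap. The window from 43.0 to 43.1 Mb held 20 in K562, the most for that list, with 8 in 293T and 12 in LNCap. The longest stretch without a silencer of any list measured 356 kb, from 18175101 to 18531401, in the bin with the first duplicated block. Next came 260 kb from 35683913 to 35943691, 250 kb from 22373701 to 22624051 within the lambda locus, and 230 kb from 23763951 to 23993801. The last 2 of the 6 longest, 219 kb from 18658851 and 217 kb from 21195951, lie in the region of the duplicated blocks. How uniquely reads map in these stretches was not examined, so an empty stretch cannot be told apart from one that could not be measured.

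The silencers of the arm were short. All 3 lists had a median width of 50 bp, and 65.8% of the 293T, 57.7% of the K562 and 58.1% of the LNCap silencers had just that width. Over the whole lists 64.5%, 58.7% and 60.6% had it. Mean width came to 84.8, 97.6 and 99.4 bp in 293T, K562 and LNCap, against 83.1, 91.8 and 91.3 bp over the whole lists. Together they covered 96.5 kb (0.298% of the arm) in 293T, 168 kb (0.518%) in K562 and 192 kb (0.592%) in LNCap. Silencers over 300 bp numbered 18, 49 and 56. The widest were chr22:33788201-33788801 in 293T, chr22:38432701-38433301 in K562 and chr22:17446801-17447451 in LNCap. The widest had scores of 2.2, 2.0 and 2.3, near the lowest score listed. The next widest were chr22:22906551-22907074 in 293T, 523 bp wide, chr22:31264801-31265351 in K562 and chr22:22063551-22064151 in LNCap, with scores of 2.1, 2.0 and 2.0. Of these 6, the widest of 293T overlapped no other list, and both of LNCap overlapped K562 and 293T.

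The activity score is the authors' own value for each silencer, has no stated scale, and is used here only within a list. Its median on the arm, 2.3 in 293T and 2.2 in both other lists, was the same as over the whole lists. A score of 2, the lowest deposited, was held by 18.5%, 24.7% and 22.5% of the silencers in 293T, K562 and LNCap, near the 18.7%, 23.1% and 21.4% of the whole lists. Scores of 4 and above were held by 27 silencers of 293T (2.37%, against 2.71% of its list), 16 of K562 (0.930%, against 1.58%) and 41 of LNCap (2.13%, against 2.18%). No silencer of the arm had an infinite score. The upper end of the K562 scores was therefore thinner on the arm than in the K562 list as a whole, which was not tested.

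The highest scores are given with the lists in which they were found. Of the arm silencers of 293T, 89.4% overlapped no other list, as did 76.7% of those of K562 and 77.1% of those of LNCap. Over the whole lists these shares were higher, at 93.9%, 82.1% and 82.2%. Most of any few silencers would therefore be found in 1 list. In 293T the highest scores belonged to chr22:36999502-36999552 (score 7.6), chr22:34256850-34256900 (5.9), chr22:32193826-32193876 (5.7), chr22:46644801-46644851 (5.7) and chr22:22906450-22906501 (5.3). None of these 5 overlapped a silencer of another list, as for most 293T silencers. The last lies just before the next-widest 293T silencer described above, at the edge of the lambda locus. In K562 the highest was chr22:34452261-34452311 (5.6), in the gene desert from 34 to 35 Mb, and it overlapped silencers of both other lists. It was followed by chr22:41329106-41329156 (4.7), then by chr22:17421376-17421450, chr22:19227351-19227401 and chr22:27114601-27114701 (4.5 each), of which the second overlapped LNCap and the others no list. In LNCap the highest were chr22:25408501-25408551 (6.8) and chr22:47540805-47540855 (6.4), found in LNCap alone. Next were chr22:20478801-20478851 and chr22:24890085-24890135 (5.7 each), which both overlapped K562, and chr22:44234331-44234491 (5.6), which overlapped no list.

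Most silencers of a list lay several kb from the next, and a minority were close neighbours. The median gap between neighbours on the arm was 14975 bp in 293T (95% order-statistic interval 13400 to 16406), 9442 bp in K562 (8795 to 10478) and 8400 bp in LNCap (7615 to 9290), against 12850, 11477 and 11000 bp over the whole lists. Gaps of up to 500 bp made up 14.2% of the gaps in 293T, 14.2% in K562 and 15.4% in LNCap, close to the 13.8%, 13.3% and 14.4% over the whole lists. The share of close neighbours was thus alike in the 3 lists although their densities differed. Joining silencers within 500 bp left 976 regions in 293T, 1476 in K562 and 1631 in LNCap, of which 17, 24 and 26 contained 3 or more silencers. No whole-list count stands beside these. The most in 1 such region was 5, in K562 at chr22:42497161-42498045, and 4 in LNCap at chr22:20598201-20598951. It was also 4 in 293T, at chr22:46644701-46645101, which includes a silencer with a score of 5.7 described above.

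Most silencers of the arm were listed in 1 line only, and the overlap was greatest between K562 and LNCap. Here 367 of the 1720 K562 silencers (21.3%, 19.5 to 23.3 by Wilson's 95% interval) shared at least 1 bp with a silencer of LNCap, against 15.7% over the whole K562 list. In the other direction 379 of 1928 LNCap silencers (19.7%, 17.9 to 21.5) overlapped K562, against 15.4%. Of 1137 silencers in 293T, 82 (7.21%, 5.85 to 8.86) overlapped LNCap, against 3.58% over the whole list, and 52 (4.57%, 3.50 to 5.95) overlapped K562, against 3.30%. From the other side, 80 of 1928 LNCap silencers (4.15%, 3.35 to 5.13) overlapped 293T, against 3.23%, and 50 of 1720 K562 silencers (2.91%, 2.21 to 3.81) overlapped 293T, against 3.03%. With no replicate lists, absence of a silencer from a second line and failure to detect it there cannot be told apart.

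The share on the arm was above that of the rest of the list in 5 of the 6 directions, and in those 5 the intervals of arm and rest did not meet. The exception was K562 in 293T, at 0.959 times the rest. For LNCap in 293T the intervals barely parted, the arm starting at 3.35% and the rest ending at 3.32%. The intervals count each silencer as independent, although some are close neighbours, and no difference was tested. For 293T in LNCap the arm stood at 2.03 times the rest, and for K562 in LNCap at 1.36 times. K562 and LNCap were themselves denser on the arm than on most autosomes, and the part of density in these shares was not tested. Per Mb of occupied 100 kb windows, LNCap had 61.8 silencers on the arm, and 2 of 21 other autosomes had more; the highest value was 101 on chromosome 19. For K562 in LNCap no other autosome had a higher share, chromosome 19 coming nearest with 20.2%. For 293T in LNCap chromosome 19 was higher, with 7.89%, and the median over the 21 was 3.49%. For 293T in K562 3 of the 21 were higher, and for LNCap in 293T 2 were. Chromosome 19 was the highest in both, with 6.40% and 4.75%. No other autosome was higher for LNCap in K562, and 12 were for K562 in 293T.

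**Figure D3:**
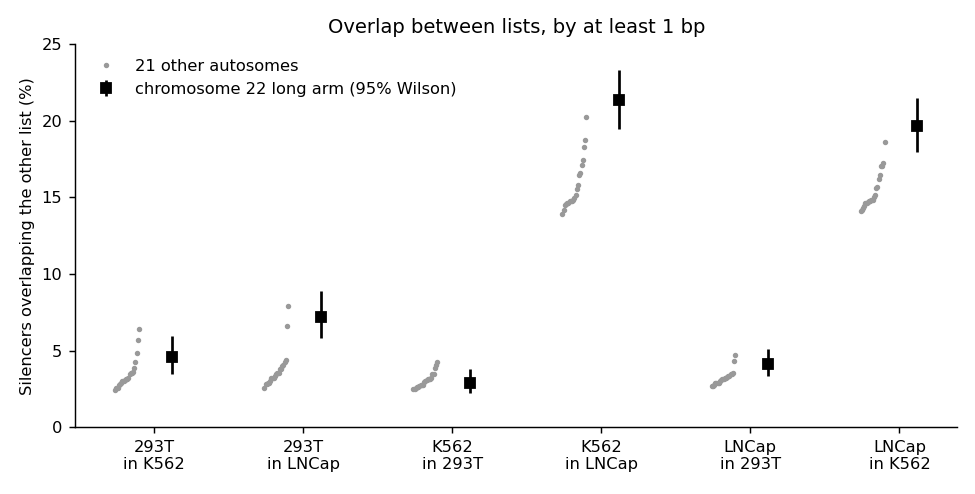
Share of silencers that overlap a silencer of another list by at least 1 bp (y axis, %), for the 6 ordered pairs of lists (x axis). Black squares are the arm with 95% Wilson intervals and grey points the 21 other autosomes; the arm lies above all grey points for K562 in LNCap and LNCap in K562, and among them for K562 in 293T.

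Along the arm the overlap varied between stretches, and the differences were not tested. The share of 293T silencers in LNCap was 5.02% in the stretch nearest the centromere (13 silencers, interval 2.96 to 8.40), 5.99% in the next, 10.6% between 33.6 and 41.7 Mb (29 silencers, 7.47 to 14.8) and 7.41% in the most distal. The stretch in which 293T was scarcest against the others had the highest share of its silencers in LNCap, with intervals that overlap those of the other stretches. LNCap was also densest in that stretch, at 67.4 per Mb, and the part of density in the share was not tested. For K562 in LNCap the 4 shares were 23.7%, 21.8%, 21.6% and 17.9%, also with overlapping intervals.

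Distances between the lists were taken over all arm silencers, overlapping ones included, with no whole-list value beside them. The median distance from a K562 midpoint to the nearest LNCap midpoint was 2122 bp, and 39.3% had a LNCap midpoint within 1 kb. That 39.3% includes the 21.3% of K562 silencers that overlapped LNCap. From 293T the medians were 4513 bp to LNCap and 5025 bp to K562, with 23.2% and 19.5% within 1 kb. Overlapping silencers seldom had the same ends: 24 of 395 overlapping pairs of K562 and LNCap (6.08%) were identical in start and end, as were 3 of 52 pairs of 293T and K562 and 4 of 84 pairs of 293T and LNCap. The whole-genome shares of identical pairs, 6.75%, 3.81% and 3.20%, lay within the intervals of the arm.

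Silencers wider than 50 bp were shared more often between K562 and LNCap. Of K562 silencers wider than 50 bp, 31.0% of 728 overlapped LNCap, against 14.2% of the 992 that were 50 bp wide; in 293T, the same comparison against LNCap gave 7.71% of 389 and 6.95% of 748. A wider silencer meets another list more often under the rule of 1 bp. Shares by width were taken on the arm alone, with no whole-list value to set beside them. By score, the share of K562 silencers in LNCap was 16.6% at scores of 2 to 2.1 (interval 14.2 to 19.4), 23.0% at 2.2 to 2.4, 30.6% at 2.5 to 2.9 (25.7 to 36.1) and 21.1% at 3 and above (15.0 to 28.7). In the same order, LNCap in K562 gave 14.2% (11.9 to 16.9), 19.5%, 28.2% (23.8 to 33.0) and 24.7% (19.1 to 31.3). In both, the class from 2.5 to 2.9 was the highest on the arm, whereas over the whole lists the class of 3 and above was, with 23.2% for K562 in LNCap and 24.8% for LNCap in K562. The intervals of these 2 classes overlap on the arm, and the difference between them was not tested. Mean width in the top class was 76.1 bp in K562 and 76.3 bp in LNCap, and in the class below it 94.2 and 97.7 bp.

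For 293T the shares met by the other lists were highest in the top class of scores. In K562 their share was 2.01% at scores of 2 to 2.1 (8 of 398, interval 1.02 to 3.92), then 3.12%, 7.76% and 9.86% at 3 and above (14 of 142, 5.96 to 15.9), with lowest and highest intervals that do not meet. In LNCap the shares were 6.28% (25 of 398, 4.29 to 9.11), 6.53%, 7.76% and 10.6% (15 of 142, 6.51 to 16.7), with intervals that do. The difference between these courses was not tested. In the whole 293T list the shares by class were 2.54%, 3.15%, 3.87% and 4.55% for K562, and 2.87%, 3.56%, 4.10% and 4.54% for LNCap. The 52 silencers of 293T shared with K562 had a median score of 2.7, against 2.3 for the 82 shared with LNCap and 2.3 for the unshared.

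**Figure D4:**
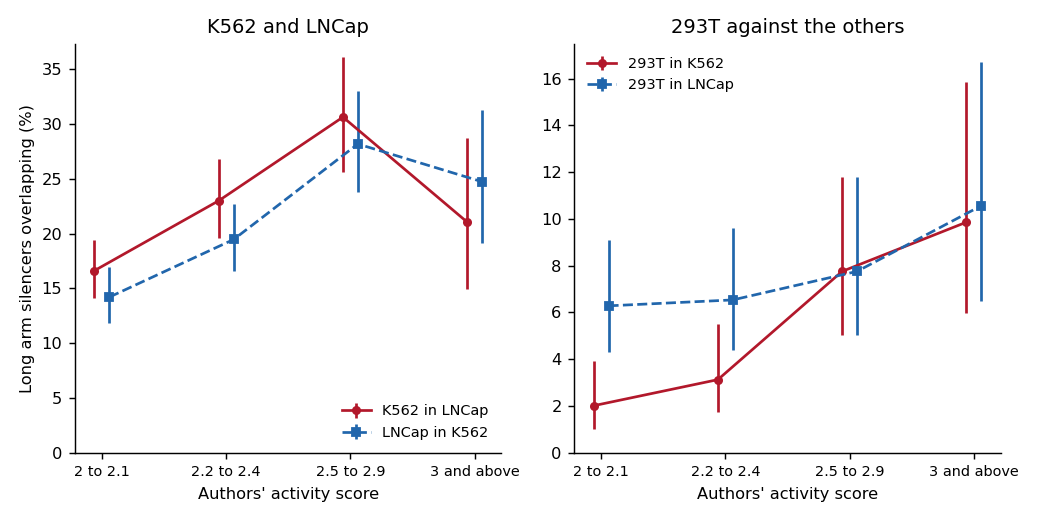
Share of long arm silencers that overlap another list (y axes, %, with 95% Wilson intervals) by class of the authors' activity score in the list counted (x axes). On the left, K562 in LNCap (red) and LNCap in K562 (blue) peak at scores of 2.5 to 2.9; on the right, 293T in K562 (red) goes from 2.01% to 9.86% and 293T in LNCap (blue) from 6.28% to 10.6%.

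Silencers of all lists that overlapped were merged, which gave 4266 regions on the arm. Of these, 1016 (23.8%) held only 293T silencers, 1320 (30.9%) only those of K562 and 1487 (34.9%) only those of LNCap. Over the genome these shares were 32.0%, 30.0% and 30.9%. A further 329 regions joined K562 with LNCap and not with 293T (7.71%, interval 6.95 to 8.55, against 5.11% of merged regions over the genome). The 293T list shared 59 with LNCap alone (1.38%, 1.07 to 1.78, against 0.856%) and 32 with K562 alone (0.750%, against 0.763%). Regions held by all 3 lists numbered 23 (0.539%, interval 0.360 to 0.808), against 0.372% of the 367012 regions over the genome, which lies within that interval.

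The 23 regions held by all 3 lists lay from the centromeric end to the bin from 45 to 46 Mb and were 92 to 846 bp wide, with a median of 277 bp. None lay between the regions at chr22:22063551-22064301 and chr22:28637076-28637250. In 12 of them some bases were covered by all lists; in the other 11 no base was covered by all of them, and the silencers formed a chain of overlaps. The highest score of a region exceeded the median of its list in 16 of 23 regions in 293T, 15 in K562 and 17 in LNCap. Of all arm silencers 482 of 1137, 727 of 1720 and 938 of 1928 did so, but a region can take the highest of several silencers, so the counts are not like for like. Scores were ranked within each list, and the regions are described by the mean of their 3 percentiles.

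The region that ranked highest, chr22:34452136-34452336, lies in the gene desert from 34 to 35 Mb. It scored 2.8 in 293T (81.2nd percentile of its list), 5.6 in K562 (99.9th) and 3.3 in LNCap (93.8th), and 50 bp were covered by all 3. Its K562 silencer is the one with the highest K562 score on the arm, so it is the only one of the 15 silencers with the top scores described above that was met by both other lists. The region chr22:34956733-34956933, in the same desert, had rank 3, with scores of 3.2, 2.3 and 3.2. The region at rank 2, chr22:32641247-32641743, lies in the bin of SYN3 and scored 3.5, 2.5 and 2.6 in 293T, K562 and LNCap.

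The regions at ranks 4 to 8 had no score above 3.2. Rank 4, chr22:45871174-45871451, scored 2.8, 2.6 and 2.7 in 293T, K562 and LNCap, with percentiles from 79.2 to 81.2, with 66 bp in common. Rank 5, chr22:42008847-42008939, scored 2.8, 2.3 and 3.2 but had 8 bp in common. Rank 6, chr22:37272801-37273051, scored 3.0, 2.3 and 2.8, and rank 8, chr22:29248101-29248201, in the bin of EWSR1 and NF2, scored 2.4, 2.5 and 2.6. At rank 7, chr22:28637076-28637250, with 2.7, 2.4 and 2.5, no base was common to all 3.

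The longest common stretches lay in regions of lower rank. At chr22:36956701-36957301 all 3 lists had a silencer that started at the same base, and 400 bp were common to them, with scores of 2.7, 2.3 and 2.1 in 293T, K562 and LNCap. At chr22:43991029-43991401 the common part was 228 bp, with 2.9, 2.0 and 2.0. These 2 regions were chosen for their common length after the values were seen. The lowest of the 23 by rank, chr22:21563534-21563901, scored 2.0, 2.0 and 2.1, so a region held by all lists can rest on scores at the lowest listed.

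**Figure D5:**
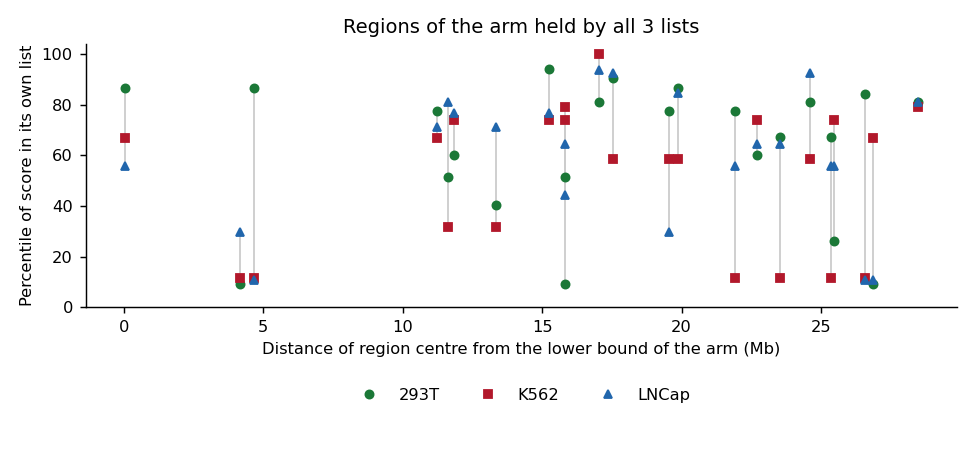
The 23 regions of the arm held by all 3 lists, by distance of the region centre from the lower bound of the arm (x axis, Mb) and by the percentile of the region's highest score within its own list (y axis; circles 293T, squares K562, triangles LNCap, joined by a grey line). Tied scores share a percentile, so the lowest points are scores of 2; the 3 symbols all stand high in the region whose K562 score is 5.6.

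The silencers next to the bounds of the rule were as follows. The nearest silencers inside the lower bound had scores of 3.0, 2.0 and 2.4 in 293T, K562 and LNCap, and those just outside it 2.2, 2.3 and 2.2. At the upper bound the last silencers inside had scores of 2.6, 3.0 and 2.8, and the first outside 2.1, 2.2 and 2.3.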

How the data were processed

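The authors' 3 silencer lists, 1 per cell line, were used, each line holding a position and an activity. Per the file headers that activity is the authors' score, rounded to 1 decimal as deposited. The sources used here do not state the scale of the score, the caller that drew the regions or any pooling of libraries. Bowtie2, SAMtools and hg38 are named in the submitters' processing notes. Read depth is unknown, since the lists hold no counts. Broken lines, unknown chromosomes and widths over 5000 bp were removed (58 lines in 293T, 12 in K562, 25 in LNCap). Positions are as deposited.

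Lists were fitted to no model: with 1 list per line no test was run, and Wilson, exact Poisson, Clopper-Pearson and order-statistic intervals cover counting error only. Share ratios carry an approximate log-normal interval. Bins were 1 Mb and scaled to equal list size. The members, lists and rules were chosen with earlier results of these data known. Named by rule were the 5 highest scores and the 2 widest silencers of each list, the 8 best-ranked regions held by all lists, and the 4 lowest, highest and fullest bins. The 4 stretches, 100 kb windows, score and width classes, neighbour distances and the order of autosomes were added after seeing the data. The planned analyses of genes, gene lists, promoters, base composition, motifs and sequences need a human genome or annotation and were not run. Overlap and merging were tested on simulated data. Calculations ran in Python 3.11.15 with pandas 2.3.3, numpy 2.4.6 and scipy 1.17.1, and plots were drawn with matplotlib 3.10.9.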

Additional observations from a re-analysis of the deposited data

How the results depend on the processing

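No paired analysis was possible because there is 1 list per line. Alternatives that need a human genome or annotation (genes, transcription starts, base composition, named genes) were not run. Of 71 alternative values, 35 stayed within the counting error, the spread between silencers or, for counts, 1.5 times of the value reported. Leaving out the bin from 21 to 22 Mb and the restriction of score and width to grid starts, both chosen after seeing the data, moved none beyond that. The share ratio of each list stayed on its side of 1 under every setting tried. Overlap shares under the alternatives were taken on the arm alone. Whether they stayed above those of the rest of the list was therefore not tested.

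Above the list's median score the arm held 482, 727 and 938 silencers in 293T, K562 and LNCap, and 631, 827 and 969 with starts at 0 or 1 modulo 50; both settings keep fewer silencers by construction. With those starts the 293T share ratio was 0.631 and the LNCap ratio 1.42; above the median score the K562 ratio was 1.03, so K562 stood hardly above the others there. An overlap of at least 50% of the shorter silencer gave 3.17% for 293T in K562, 5.80% for 293T in LNCap, 2.03% for K562 in 293T, 18.5% for K562 in LNCap, 3.27% for LNCap in 293T and 16.9% for LNCap in K562. In the same order, silencers set to 300 bp gave 11.7%, 15.4%, 7.21%, 32.3%, 8.82% and 29.4%, and midpoints within 500 bp 14.7%, 18.4%, 9.53%, 35.1%, 10.7% and 31.8%. Shares under these settings were taken on the arm alone, with no whole-list value beside them. Above the median score in both lists, K562 in LNCap was 18.2%, LNCap in 293T 3.09% and LNCap in K562 13.9%. Regions held by all lists then numbered 10 of 1961 merged regions, with no genome-wide share beside them. The 293T count was below the others in 53 of 65 bins of 500 kb and 17 of 17 bins of 2 Mb. These counts again restate the value by which the chromosome was picked. No genome-wide share at these bin sizes stands beside them. Median gaps after joining silencers within 500 bp were 19566, 12305 and 11153 bp. K562 in LNCap exceeded 293T in K562 and in LNCap under every setting tried for overlap. Depth sets no limit that can be given, since no read counts were used.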
